A study of Caenorhabditis elegans with 2 samples.

Results

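The 72 histone genes were taken as all protein-coding genes whose symbol is his- followed by a digit, among 19973 nuclear protein-coding genes of Caenorhabditis elegans. They comprised 17 genes for H2A, 17 for H2B, 16 for H3, 16 for H4, 5 for the variant H3.3 and 1 for the linker histone H1. Chromatin immunoprecipitation with sequencing (ChIP-seq) had been done with an antibody against GFP on whole late embryos of hermaphrodites, 5 h after egg bleaching. The 2 biological replicates formed the only group. Both came from strain OP418, whose genotype the labels give as unc-119(tm4063) on chromosome III with the transgene insertion wgIs418, a source of the transcription factor DMD-4 carrying GFP and FLAG at its C terminus. The labels name no promoter for the transgene, and signal from whole embryos does not tell which cells carried it.

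Histones are the proteins around which DNA is wound in the nucleosome in a core of H2A, H2B, H3 and H4, while H1 binds the DNA that enters and leaves it. Dividing cells make most of their core histones during DNA replication, from short genes without polyadenylated messages whose transcripts end in a conserved stem-loop. Variants such as H3.3 are made throughout the cell cycle and are placed at active genes. In the worm, many core histone genes lie head to head in divergent pairs that share the DNA between their starts, and the pairs are gathered in clusters of near-identical copies. DMD-4 belongs to the family of DM-domain proteins, named after Drosophila doublesex and worm mab-3, and is known in C. elegans for a role in sex-specific wiring of phasmid neurons.

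The authors deposited a list of 30000 candidate regions for each replicate, a list of 30000 for both replicates pooled, and a shorter list of 652 regions kept by the irreproducible discovery rate procedure, called reproducible peaks here. The 652 were the strongest regions of the pooled list. Each region has a summit and a signal in arbitrary units relative to the control, set by the authors' caller and comparable within 1 list only. Rank 1 is the strongest signal. The weakest reproducible peak had a signal of 106.4 units. A gene was given the strongest pooled region whose summit lay from 1000 bp upstream to 200 bp downstream of a transcript start. Control lists were not used here and sequencing depth is unknown, so no interval can be put on a signal.

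A reproducible peak lay at 6 of the 72 histone genes (8.33%), against 2.04% of all 19973 genes. The genes were the H4 gene his-67 and the H2A gene his-68, the H2A gene his-61 and the H2B gene his-62, the H4 gene his-37 and the H3.3 gene his-72. Each of the first 2 pairs shared 1 peak, so there were 4 distinct peaks. Candidates of any rank were more common: 25 histone genes (34.7%) had one, against 39.9% of all genes. The remaining 47 had none. Genes of a pair share most of their window and often their region, so counts over genes are not counts of independent regions, and 16 of the 25 genes shared their region with their partner.

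The sequences between the starts of the pairs are shown first, because 8 of the 17 distinct histone regions and 2 of the 4 reproducible peaks had their summit there. They are the plus strand of ce11 (the WBcel235 assembly, from the RefSeq genome sequence), with 50 bases cut from each end next to the gene models. Capitals mark TATAAA and GGGACACA on either strand. The 4 gaps below are some of the 8 that held a candidate summit, and that of his-67 and his-68 is not printed. Each of the 4 holds GGGACACA, which was within 100 bases of only 8 of the 17 histone summits. They lie at chrIV:7486268-7486494 (his-61 and his-62), chrIV:8334034-8334254 (his-31 and his-32), chrIV:7488043-7488198 (his-60 and his-59) and chrV:16040566-16040757 (his-4 and his-3). The last sequence is the 201 bases centred on the peak of his-37, at chrV:9546900-9547100.
his-61 and his-62: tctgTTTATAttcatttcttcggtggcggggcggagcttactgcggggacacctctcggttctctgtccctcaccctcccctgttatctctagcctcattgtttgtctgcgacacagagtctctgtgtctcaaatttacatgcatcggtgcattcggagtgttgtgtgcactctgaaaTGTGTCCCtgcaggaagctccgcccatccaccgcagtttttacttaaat
his-31 and his-32: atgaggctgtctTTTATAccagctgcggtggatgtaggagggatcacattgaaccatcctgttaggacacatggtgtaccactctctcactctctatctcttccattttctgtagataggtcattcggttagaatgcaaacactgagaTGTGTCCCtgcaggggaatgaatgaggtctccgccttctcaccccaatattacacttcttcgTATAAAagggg
his-60 and his-59: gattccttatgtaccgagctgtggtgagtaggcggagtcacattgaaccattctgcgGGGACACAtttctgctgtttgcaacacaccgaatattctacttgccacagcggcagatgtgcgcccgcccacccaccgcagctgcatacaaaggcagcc
his-4 and his-3: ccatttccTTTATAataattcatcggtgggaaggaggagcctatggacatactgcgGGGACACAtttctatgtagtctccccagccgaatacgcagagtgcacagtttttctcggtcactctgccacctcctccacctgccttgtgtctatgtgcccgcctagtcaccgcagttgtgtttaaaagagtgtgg
his-37: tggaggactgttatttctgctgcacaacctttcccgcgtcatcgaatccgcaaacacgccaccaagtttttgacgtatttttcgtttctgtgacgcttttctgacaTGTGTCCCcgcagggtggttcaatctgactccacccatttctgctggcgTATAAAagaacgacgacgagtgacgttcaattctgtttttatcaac

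Next to them stand 2 gaps that exist as identical copies and held no summit. The gap of his-51 and his-52, at chrV:8850222-8850413, has 3 other exact copies among the histone pairs. The gap of his-12 and his-11, at chrII:13821632-13821758, has 2 others.
his-51 and his-52: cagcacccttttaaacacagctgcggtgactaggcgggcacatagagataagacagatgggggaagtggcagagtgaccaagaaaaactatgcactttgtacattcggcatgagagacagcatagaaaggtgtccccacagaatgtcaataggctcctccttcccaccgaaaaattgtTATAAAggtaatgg
his-12 and his-11: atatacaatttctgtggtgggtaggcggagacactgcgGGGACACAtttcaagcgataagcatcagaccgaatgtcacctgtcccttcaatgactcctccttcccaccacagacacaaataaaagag

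The strongest histone peak lay at chrI:9988733-9989182, between the H4 gene his-67 and the H2A gene his-68. It had a pooled signal of 202.4 units at rank 129, with rank 150 and 89.98 units in replicate 1 and rank 132 and 110.5 units in replicate 2. The 2 replicates thus placed it alike, and the pooled list is made from both. Its summit was intergenic, 195 bp upstream of his-67 and 174 bp upstream of his-68, close to the middle of a gap of 368 bp, the widest of any histone pair. This is the only histone pair that joins H2A with H4.

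The peak of the pair his-61 (H2A) and his-62 (H2B), at chrIV:7486206-7486655, had a pooled signal of 127.0 units at rank 394. It ranked 281 with 68.3 units in replicate 1 and 598 with 62.1 units in replicate 2. Both replicates therefore held it within their strongest 652 candidates. The summit lay 114 bp upstream of his-62 and 214 bp upstream of his-61. The neighbouring pair his-60 (H4) and his-59 (H3) in the same cluster of 4 genes had a region of 59.9 units at rank 4706, with rank 13734 in replicate 1 and 3692 in replicate 2. Adjacent pairs of 1 cluster thus differed in rank by more than an order of magnitude in the pooled list and replicate 1. In replicate 2 they differed by less, and the pooled signals were 127.0 and 59.9 units.

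The H4 gene his-37, which has an intron and no stem-loop, carried a peak of 110.9 units at rank 583 (chrV:9546775-9547224). It ranked 404 with 58.8 units in replicate 1 and 706 with 58.5 units in replicate 2. Its summit was 105 bp upstream of the annotated start, and an overlapping region with its summit inside the gene had 89.2 units at rank 1093. The H3.3 gene his-72 carried a peak of 110.1 units at rank 593 (chrIII:12368746-12369195). It ranked 1105 with 43.1 units in replicate 1 and 506 with 65.9 units in replicate 2, so only replicate 2 had it among its strongest 652. Its summit lay inside the gene, 79 bp downstream of 1 of the 2 annotated transcript starts, and a region of 78.1 units at rank 1772 lay 56 bp from the other start. The his-72 peak also lay 427 bp from the snoRNA gene Y49E10.36. Without regions within 500 bp of a structural RNA gene, 5 of the 72 histone genes and 3 distinct peaks remained, against 1.77% of all genes. The part of the snoRNA gene in the his-72 signal was not tested.

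The his-37 and his-72 peaks were just inside the end of the reproducible list, and both had a deposited −log10 q below that of the stronger peaks: 1.16 for his-37 and 1.11 for his-72, against 1.53 for his-61 and his-62 and 2.62 for his-67 and his-68. At q of 0.05 or less, 4 of the 72 histone genes and 2 distinct peaks were left, against 1.63% of all genes. A region among the strongest 652 of both replicates was found at 4 of the 72 histone genes (5.56%), against 1.41% of all genes. These were the genes of the pairs his-67 and his-68 and his-61 and his-62.

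**Figure D1:**
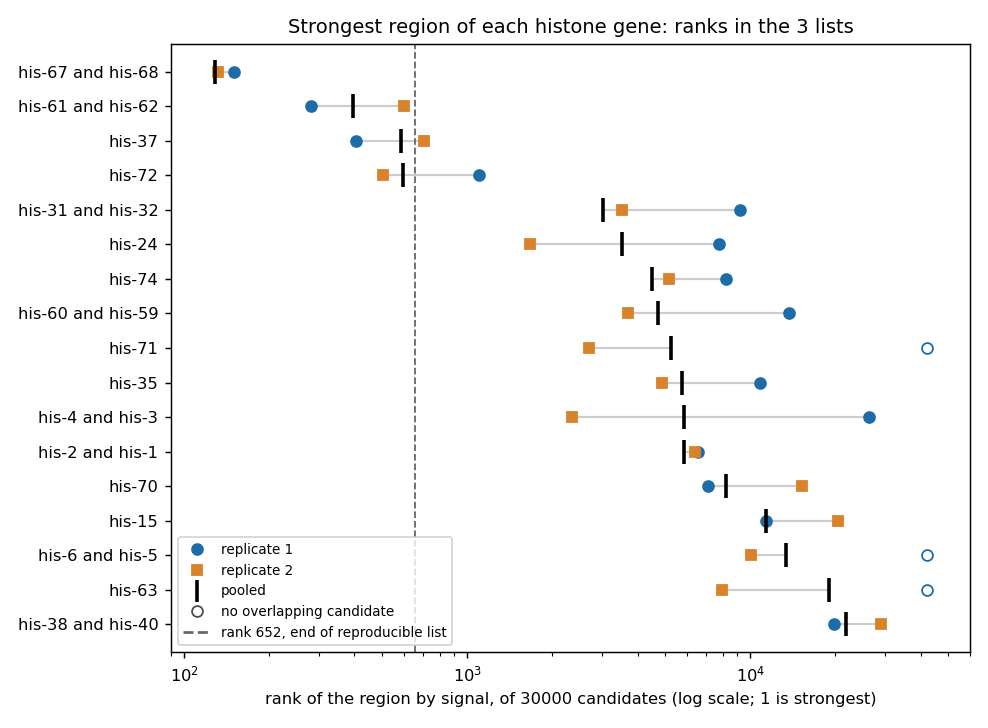
Rank (log scale, 1 is strongest) of the strongest region of each of the 25 histone genes with a candidate, drawn as 17 distinct regions, in replicate 1 (circles), replicate 2 (squares) and the pooled list (bars); open circles mark no overlapping candidate in replicate 1. The pooled bars of the first 4 regions lie left of the dashed line at rank 652, and the next pooled rank is 3027. The marks of his-72 in replicate 1 (1105) and his-37 in replicate 2 (706) lie right of the line.

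No histone gene had its strongest region between rank 652 and rank 3000. The first region below was that of the divergent pair his-31 (H4) and his-32 (H3), with 67.6 units at rank 3027, rank 9207 in replicate 1 and rank 3532 in replicate 2. The linker histone H1 gene his-24 followed, with 64.7 units at rank 3533, rank 7745 in replicate 1 and rank 1663 in replicate 2. Its summit lay 22 bp upstream of the start, inside the non-coding RNA gene M163.19. A stronger region of 112.7 units at rank 561, with rank 1070 in replicate 1 and 414 in replicate 2, had its summit 1231 bp downstream of the his-24 start (chrX:14491100-14491549). It is outside the window and is not counted for his-24.

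The 5 genes for H3.3 differed widely. Beside his-72, the H3.3 gene his-74 had 60.6 units at rank 4504, with rank 8243 in replicate 1 and 5165 in replicate 2, and its summit was 35 bp inside the gene. The H3.3 gene his-71 had 58.0 units at rank 5252 and a summit 769 bp upstream, with rank 2696 in replicate 2 and no overlapping candidate in replicate 1. For his-70 the region had 50.9 units at rank 8195 and lay 859 bp upstream, inside a pseudogene, with rank 7097 in replicate 1 and 15188 in replicate 2. The fifth, his-69, had no candidate in its window, although every 36-base word there occurs once in the genome.

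The other regions were weak. The pairs his-4 and his-3 (56.3 units, rank 5852) and his-2 and his-1 (56.3 units, rank 5855) are neighbours in 1 cluster and had nearly the same pooled signal. Their replicates did not match in the same way: the region of his-4 and his-3 ranked 26211 in replicate 1 and 2338 in replicate 2, while that of his-2 and his-1 had the close ranks 6535 (replicate 1) and 6366 (replicate 2). The pair his-6 and his-5 had 42.9 units at rank 13435, and the pair his-38 and his-40 had 35.1 units at rank 21747, the weakest of all. The other 3 genes were credited with a region nearer to another gene. For his-35 (H2A) it lay inside his-41 and C50F4.6 at rank 5753, for his-15 (H2B) inside ZK131.11 at rank 11380, and for his-63 beyond its partner his-64 at rank 18945.

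The median pooled rank of the strongest region was 5252 over the 25 histone genes with a candidate, and also over their 17 distinct regions. Over the 7963 genes with a candidate among all genes it was 10836. For the histone genes it was 8725 in the list of replicate 1 alone and 4868 in that of replicate 2 alone, each over the genes with a candidate in that list. An overlapping candidate was present in both replicates for 21 of the 25 genes. Of the 17 regions, 3 had no overlapping candidate in replicate 1 and 0 lacked one in replicate 2. Of those in both, 5 ranked higher in replicate 1 and 9 in replicate 2.

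By class, a candidate was found at 7 of 16 genes for H4, 6 of 16 for H3, 4 of 17 for H2A, 3 of 17 for H2B, 4 of 5 for H3.3 and the single H1 gene. Reproducible peaks lay at 2 genes for H4, 2 for H2A, 1 for H2B and 1 for H3.3, and at 0 genes for H3. The stem-loop of replication-dependent histone messages was found within 300 bp after the stop codon of 61 genes, of which 18 had a candidate. Of the 11 genes without it, 7 had a candidate: his-24, his-35, his-37, his-70, his-71, his-72 and his-74. The amount of unique sequence moved with this split, since 6 of these 7 windows had over 90% unique words, as described next, and its part in the difference was not tested. The classes differed in it too. The median share of unique words was 3.09% for H2A, 21.0% for H2B, 37.9% for H4, 47.3% for H3 and 100% for H3.3 and H1.

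Many histone genes are near-identical copies. A promoter window was scored by the share of its 36-base words that occur once in the genome, since a read from repeated sequence cannot be given a single place. The median share was 23.3% over the 72 histone windows, against 100% over all genes, and 20 histone windows held no unique word at all. Histone genes with a candidate had a median of 85.9%, those without had 3.09%, and the lowest share with a candidate was 32.1%, at his-15. How the authors treated reads that map to several places is not given in the sources used here.

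Within windows of like unique content, set after the values were seen, candidates were found at 8 of 10 histone genes (80%) with at least 90% unique words, against 41.8% of 17388 genes of all kinds. At 50 to 90% unique words they were found at 16 of 22 histone genes (72.7%), against 33.1% of 1971 genes. Most of these 16 share their region with their partner, so they stand for fewer regions. Under 50% they were found at 1 of 40 histone genes (2.5%), against 6.35% of 614 genes. Reproducible peaks lay at 4 of the 10 histone genes with at least 90% unique words (40%), against 2.09% of all such genes. These 4 were his-67, his-68, his-37 and his-72, and they stand for 3 peaks. For the 40 genes with the lowest share, a weak signal and reads that could not be placed cannot be told apart. Some of the 40, from his-50 to his-53 and from his-28 to his-18, lie in a longer stretch without candidates, given below with the clusters.

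**Figure D2:**
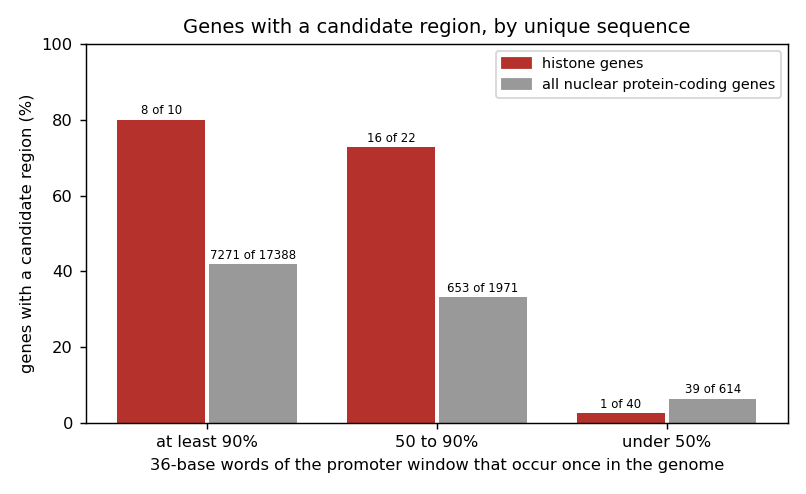
Share of genes with a candidate region (%, bars from 0) in 3 ranges of unique 36-base words in the promoter window, for histone genes (red, left) and all nuclear protein-coding genes (grey, right), with the counts above the bars. Histone genes stand at 8 of 10 and 16 of 22 in the upper 2 ranges, and at 1 of 40 in the lowest. Partners that share a region are counted as separate genes.

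The divergent pairs show the same contrast. There were 31 pairs holding 62 of the genes: 16 of H2A with H2B, 14 of H3 with H4, and his-67 with his-68. Their starts were 227 to 368 bp apart, with a median of 258 bp, and the 31 gaps held 21 distinct sequences. A summit lay between the starts of 8 pairs (25.8%), against 25.5% of 1697 divergent protein-coding pairs in the genome, and a reproducible one in 2 (6.45%), against 3.71%. With at least 90% unique words between the starts, 7 of 8 histone gaps held a summit (87.5%), against 26.8% of 1517 pairs. The exception was the pair his-35 and his-41, whose gap is fully unique. Of the 20 histone gaps under 20% unique words, a limit also set after the values were seen, 0 held a summit, against 0% of the 40 such gaps in the genome, which include the 20. Of the 20, 17 had no unique word. Between these ranges, the gap of his-6 and his-5 (85.6%) held a summit. Those of his-63 and his-64 (85.4%) and of his-8 and his-7 (79.4%) held none.

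Summits lay between the starts of 5 of the 14 pairs of H3 with H4 and 2 of the 16 pairs of H2A with H2B. The summits were 54 to 114 bp from the nearer start except at his-67 and his-68 (174 bp) and at his-31 and his-32 (157 bp). Outside the divergent pairs stood 10 genes, of which 6 had a candidate: his-24, his-37, his-70, his-71, his-72 and his-74. The H3 genes his-73 and his-42, the H2B gene his-39 and the H3.3 gene his-69 had none.

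**Figure D3:**
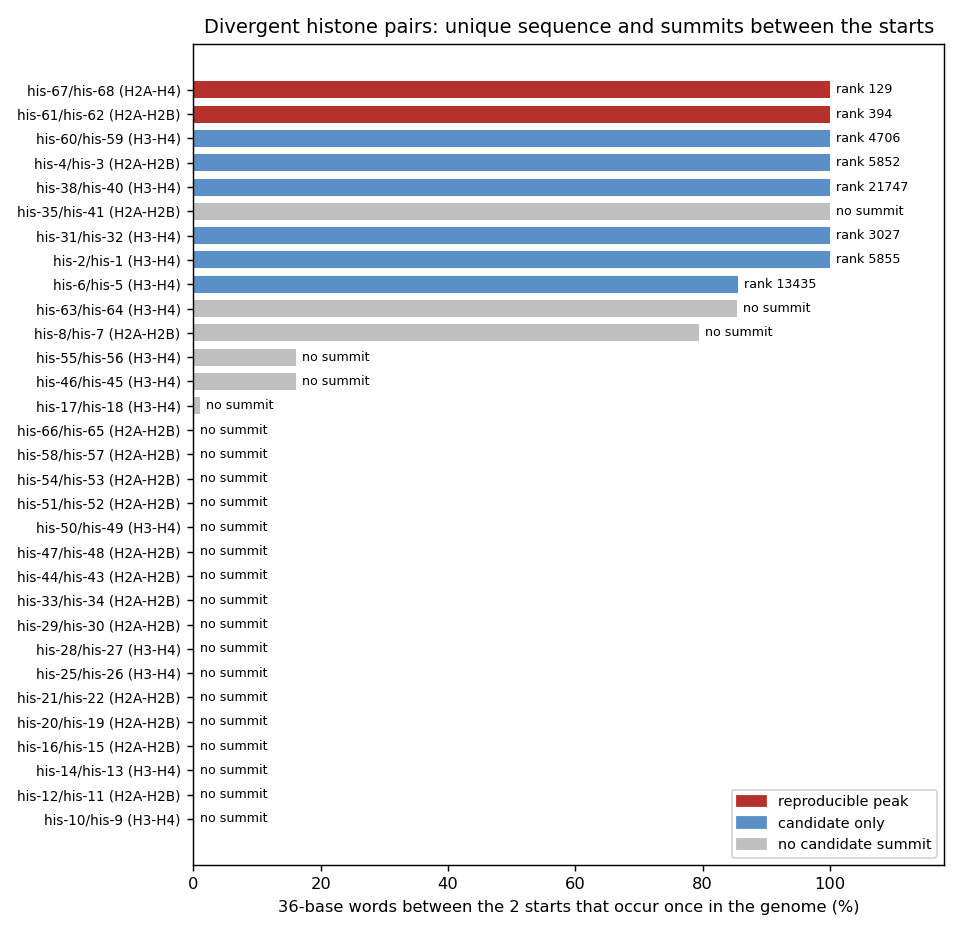
Share of 36-base words that occur once in the genome (%, bars from 0) between the 2 starts of each of the 31 divergent histone pairs, with the pooled rank of any summit there; red marks reproducible peaks, blue other candidates and grey no summit. All 8 summits fall in gaps of at least 85.6% unique words, but the gaps of his-35 and his-41 (100%), his-63 and his-64 (85.4%) and his-8 and his-7 (79.4%) hold none.

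Along the chromosomes, the histone genes formed 14 clusters (neighbours at most 10 kb apart) with 67 genes, and 5 stood alone: his-73, his-72, his-74, his-71 and his-24. The unique words of a cluster were counted with 1000 bp added on each side. The largest cluster, 13 genes over 10938 bp of chromosome II from his-16 to his-42, had 19.5% unique words and 1 gene with a candidate. On chromosome V, 6 genes from his-50 to his-53 had 0% unique words and 8 genes from his-28 to his-18 had 9.01%. No candidate summit lay in either cluster or within 1000 bp of it. The nearest one was 35170 bp from the start of his-50 and 26064 bp from the start of his-18. The nuclear genome held 0.299 summits per kb, so the stretch without candidates reached far beyond these histone genes. Its cause was not tested. Most unique words of the clusters from his-16 to his-42 and from his-28 to his-18 lay in the added stretches. In contrast, all 4 genes of the cluster his-61, his-62, his-60 and his-59 (90.2% unique words) and all 4 of the cluster from his-4 to his-1 (82.6%) had a candidate. The stretches added to these clusters were almost fully unique, so the shares inside them were lower. In the cluster of 6 genes from his-29 to his-34, the middle pair his-31 and his-32 had a region, and the flanking pairs, whose gaps are identical to each other, had none.

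**Figure D4:**
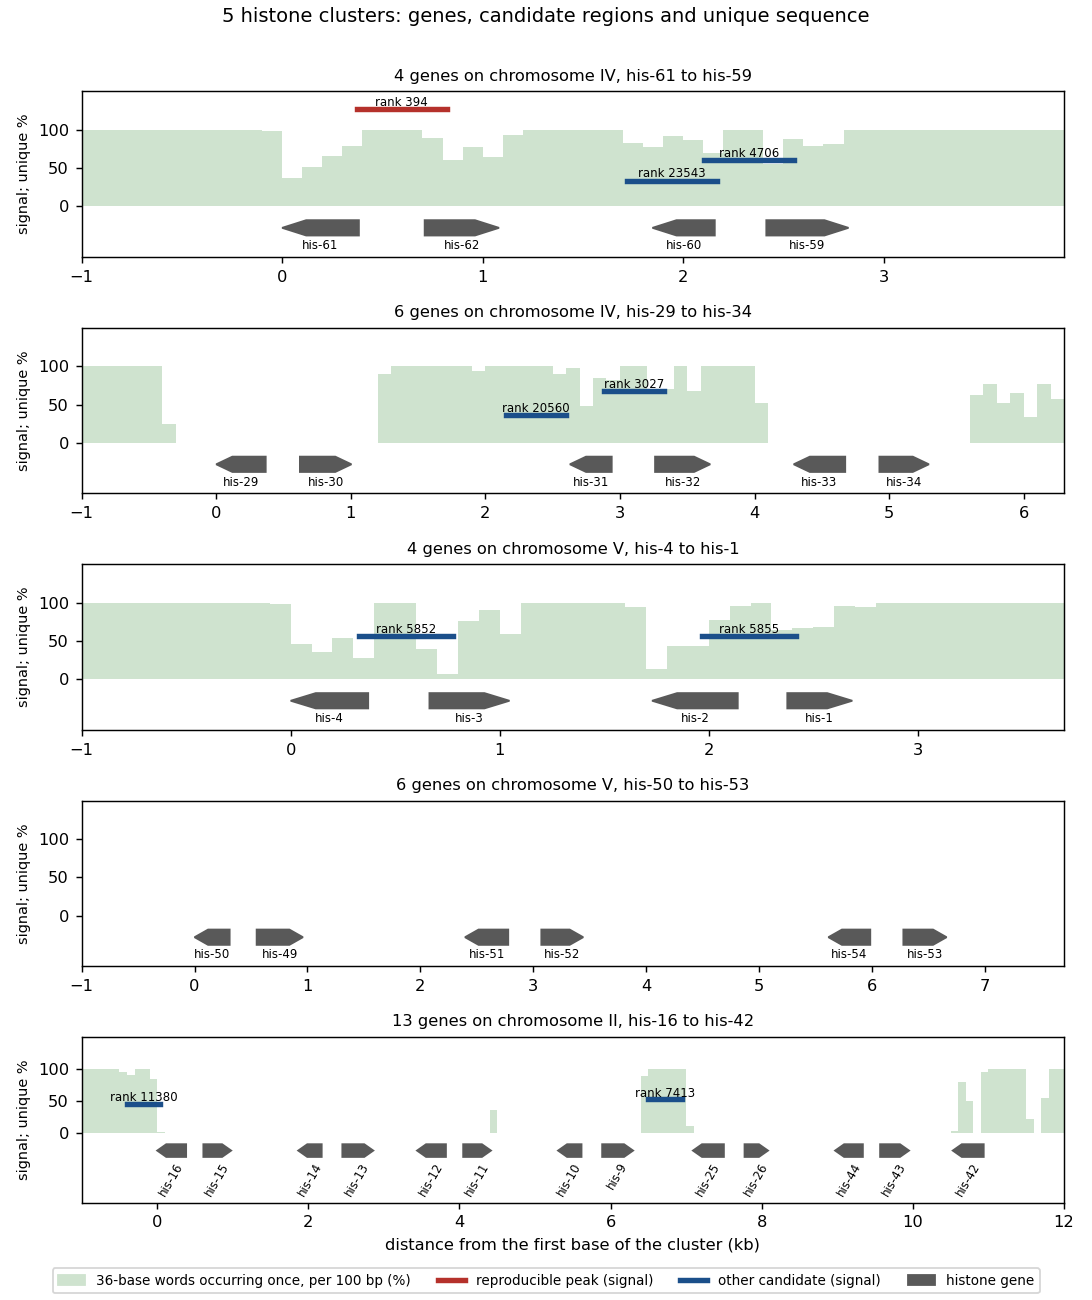
Maps of 5 histone clusters, with distance from the first base of the cluster (kb) across and, upwards, the signal of each pooled candidate (line, arbitrary units, with its rank) and the unique 36-base words per 100 bp (green, %); grey arrows are genes and their direction. Candidates lie in green stretches, and the cluster from his-50 to his-53 has neither.

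Promoters from 250 bases before to 50 after the start were searched on both strands for exact words. TATAAA, the TATA box, was present in 47 of 72 histone promoters (65.3%), against 37.9% of all 19973 promoters. It was in 24 of the 31 gaps and 16 of the 21 distinct gap sequences. Among the 6 genes with a reproducible peak it was present at his-68, his-61 and his-37, starting at −60, −60 and −50 bases from the annotated start. GAGAGA was present in 33 histone promoters (45.8%), against 21.8% of all promoters, and in 11 of the 21 distinct gap sequences. CGCACA was present in 14 (19.4%), against 7.19%, and in 4 of the 21. GCGCGC was present in 1 (1.39%, his-72), against 3.58%. Divergent partners and identical copies often hold the same site, so counts over histone promoters are not counts of independent sites. Annotated starts of 65 histone genes, his-68 and his-61 among them, are start codons, so for these genes the distance is from the start codon and not from a transcript start. The annotated start of his-37 is not a start codon.

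ACATTGT, the core of the sequence bound by DM-domain proteins, was present in 24 histone promoters (33.3%), against 5.67% of all promoters. Of these, 16 matches began at −3 bases from the gene start, where its reverse complement is made of the bases ACA, the start codon and the base after it. In 7 further genes the match was that same start-codon word of the divergent partner, seen from the other strand. The 24 genes thus held 17 distinct sites, of which 16 lie across a start codon and 1, at his-24, does not. The word was present in 0 of the 31 gaps. Of the reproducible genes only his-67 had a match, and it is one of those across the start codon. The his-24 match began at −203 bases from the start.

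The 8-base word GGGACACA, picked after the values were seen because it recurs between the pairs, was in 13 of the 21 distinct gaps and 20 of the 31 gaps. It was in 43 histone promoters, and in 0.621% of all 19973 promoters. Among 327 divergent gaps of like length in the genome, 6.12% held it, and these 20 are the histone gaps. Within 100 bases of the summit it was in 8 of the 17 histone regions and in 3 of the 4 reproducible histone peaks, at ranks 129, 394 and 583. Many of these summits lie in the gaps the word was picked from, so its choice favoured these counts. GGGACACA was in 1.24% of 643 nuclear reproducible peaks of all kinds and 0.46% of the 29345 other candidates. Both shares include the histone regions. The printed gap of his-12 and his-11 also holds GGGACACA, but has no unique 36-base word. In 13 of the 21 distinct gaps were also ATGTGTCC, which overlaps GGGACACA by 7 bases, and AAGTGAGA. ATGTGTCC was near 8 of the 17 histone summits and 3 of the 4 reproducible ones. AAGTGAGA was near 1 of the 17 and 0 of the 4.

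A list of 25 genes around histones was examined in the same way: variants, linker histones, the stem-loop binding protein and the proteins that fold, carry or assemble histones. A candidate lay at 16 of them and a reproducible peak at 3, read against the 39.9% and 2.04% given for all genes. The strongest was at chaf-2, which encodes a subunit of the assembly factor CAF-1 (chrI:1823124-1823341), with 330.5 units at rank 28, rank 62 in replicate 1 and 22 in replicate 2. The H3 and H4 chaperone gene unc-85, a worm ASF1 gene, had 161.0 units at rank 231, with rank 280 in replicate 1 and 228 in replicate 2. The ASF1-like gene asfl-1 of the same list had no candidate, in a window of 100% unique words. The linker histone gene hil-7 had 118.5 units at rank 487, with rank 2082 in replicate 1 and 216 in replicate 2, near the snoRNA gene C01B10.48.

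Among the 12 chaperone and assembly genes 7 had a candidate. Beside chaf-2 and unc-85 they were spt-16, a subunit of the FACT complex (92.7 units, rank 968), nasp-1 (rank 6805), hira-1, a carrier of H3.3 (rank 11104), lin-53 (rank 11635) and chaf-1 (rank 15118). Of the 4 variant genes 3 had one: the H2A.Z gene htz-1 with 87.7 units at rank 1154, the centromeric H3 gene hcp-3 with 78.5 units at rank 1747, and cpar-1 at rank 20852. The stem-loop binding protein gene cdl-1 had 64.2 units at rank 3636. Among the 8 linker genes named hil, 5 had a candidate: hil-7, hil-4 (rank 6440), hil-3 (rank 7281), hil-2 (rank 12693) and hil-5 (rank 17268).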

How the data were processed

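Region lists in narrowPeak form were deposited for each of 2 biological replicates and for both pooled. Column 7 of each deposited list holds the authors' signal value and column 9 the authors' −log10 q-value, by the narrowPeak format. The genome builds ce11 and ce10 are named per the labels; ce11 was used, and coordinates were never converted. The sources used here do not state aligner, peak caller, read length, handling of repeated reads, threshold or depth. Genes and transcript starts came from Ensembl release 115. Ensembl gave 50 different symbols to the 72 genes, so names came from RefSeq genes at the same coordinates (72 of 72 matched). The class of his-73, his-39 and his-24 came from protein identity. The models of his-73 (46 residues) and his-39 (67 residues) are short, and they were counted with H3 and H2B. A replicate region was matched to a pooled one by an overlap of at least 1 bp, and a pair had starts at most 1000 bp apart. The 64 gene models with 1 exon are multiples of 3 bases long, so they hold coding length without UTRs. Genes were named in full where they had a reproducible peak or a strongest region in the top 5% of ranks, encoded H3.3 or H1, or came just below the list. No test was made, since there was 1 group. Members, lists and ranges were chosen with earlier results of these data known. Python 3.11.15, numpy 2.4.6 and Biopython 1.88 were used, and the counting steps were tested on simulated data.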

Additional observations from a re-analysis of the deposited data

How the results depend on the processing

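Of 59 alternative values over 10 results, 56 stayed within 1.5 times the count or within the replicate spread. At q of 0.05 or less the distinct reproducible histone peaks numbered 2, against 4. With the top pooled regions as many as the ce10 list of 1138, added after the data were seen, reproducible peaks covered 3.29% of all genes, against 2.04%, and 6 histone genes as before. The median rank of histone genes was 4868 to 8725 with 1 replicate left out, against 5252. Histone genes with a candidate numbered 20 of 72 in a window of 500 bp upstream to 100 bp downstream, against 27% of all genes. In a window of 2000 bp to 500 bp they numbered 35 of 72, against 55.8% of all genes. Words of 50 bases gave a median unique share of 25.3%, against 23.3%. No paired analysis was possible because there was 1 group. Depth is unknown, so a missing candidate does not show that no protein was bound.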

Other observations

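In the cluster of 13 genes on chromosome II, the longest unique stretch between the genes lies between his-9 and his-25, and it held a region of 52.4 units at rank 7413, with rank 8821 in replicate 1 and 9670 in replicate 2. Its summit was 783 bp from the start of his-25, beyond the other end of that gene. In the cluster of his-35, his-41 and his-37, a region of 81.9 units at rank 1473 had its summit 64 bp from the start of mdf-1, a spindle checkpoint gene beside the histones.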
